A study of Mus musculus with 8 samples.

Results

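Hard palate was compared with ventral tongue in 4 of the 8 samples of a tomo-seq study of the mouse mouth. Tomo-seq sequences thin consecutive slices of a piece of tissue one by one, each under its own barcode, and so records expression through the depth. All 4 samples came from wild-type C57BL/6J mice, 2 labelled hard palate and 2 labelled ventral tongue (the underside of the tongue), with no treatment and no age stated. Each sample had 20 sections of 14 µm. The labels number the replicates 1 and 2 within a site without naming the animals. The p-values therefore rest on the variation of these libraries alone, part of which may be technical. The samples were chosen by their site label alone. The UMI counts (unique molecular identifiers, 1 per captured transcript) of all 20 sections were summed for each sample, and the comparison was repeated with sections 1 to 5, where less deep muscle was counted. Values are CPM of UMIs (counts per 1e+06 in the library), scaled by TMM, and log2 fold changes are hard palate minus ventral tongue, so a positive value means higher in the palate. Paired values are replicates 1 and 2 in turn, and "passed" means an adjusted p under 0.05 by edgeR's quasi-likelihood test with Benjamini-Hochberg adjustment over all genes tested. Genes were named by a fixed rule of size, and further members of the gene lists, named for their role, were chosen after their values were seen. "Without" a replicate means a fit of the other 3 samples.

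Oral epithelium is stratified, and its type differs by site. The hard palate carries a masticatory mucosa, cornified and bound tightly to the bone below, whereas the ventral tongue carries a thin lining mucosa over the muscle of the tongue. Keratins pair as type I and type II proteins, and the pair in use marks the kind of epithelium: Krt5 and Krt14 in basal cells, Krt1 and Krt10 in cornifying epidermis, Krt4 and Krt13 in lining mucosa, Krt6 and Krt16 in the palate and in activated epithelium, and the hard keratins with the keratin-associated proteins in hair, nail and tongue papillae. The face and palate arise from neural crest and ectoderm patterned by homeobox and AP-2 factors, the tongue muscle from myoblasts that enter the floor of the mouth.

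The palate samples held 17743983 and 26376536 UMIs in total and the tongue samples 16182531 and 20526538, with 6196581, 5844354, 2394007 and 4777357 of these in sections 1 to 5. All 20 listed keratinocyte markers had UMIs at both sites, and their mean level per section, as log2(CPM + 1), was 8.57 to 8.94 and 8.2 to 8.58 through the palate. In ventral tongue it was 7.96 to 8.31 and 8.04 to 8.33 in sections 1 to 5 and lower, at 6.45 to 7.73 and 7.37 to 7.91, in sections 6 to 20. The skeletal muscle list of 54 genes took 0.125% and 0.0645% of the UMIs in palate and 5.39% and 4.87% in ventral tongue. In hard palate replicate 1 sections 1, 4 and 19 carried 4591, 9641 and 16992 CPM of muscle genes, against 329 to 1535 in its other 17 sections. A sum over sections cannot tell fewer cells of a type from less RNA per cell. The share of muscle and of keratinocyte transcripts therefore moved with the site in whole samples. A repeat in sections 1 to 5 stands beside many of the results below. A scaling to the keratinocyte list and a fit without muscle and mitochondrial genes are given mainly as counts over all genes, not gene by gene. For genes of the naming rule in whole samples, keratinocyte scaling left 108 calls the same. Under it 15 genes lost their call, 4 gained one and 2 changed sign.

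**Figure D1:**
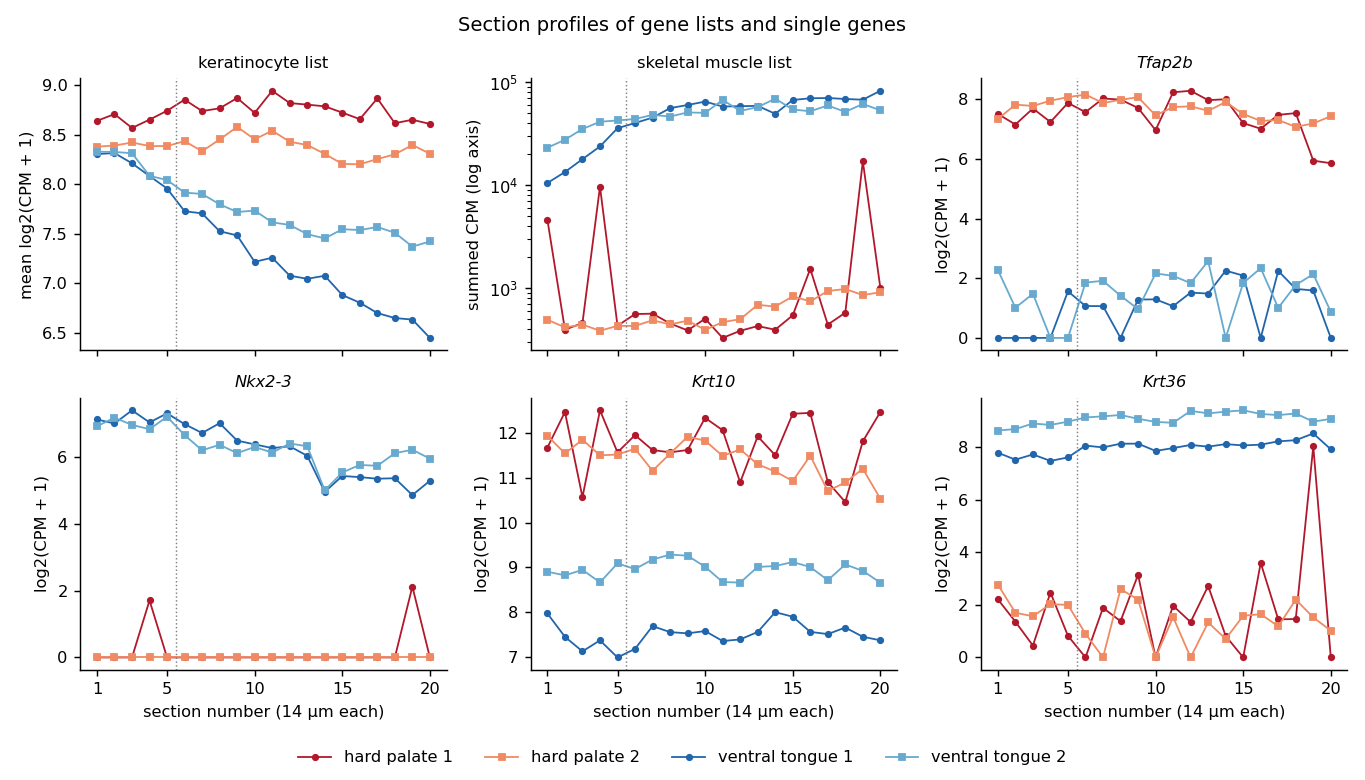
Section number (x axis, 14 µm each, dotted line between 5 and 6) against the mean level of the keratinocyte list, the summed CPM of the skeletal muscle list (log axis) and the level of 4 genes as log2(CPM + 1), 1 line per sample. The keratinocyte level stays flat in both palate samples and falls in both tongue samples, muscle CPM is lower in both palate samples at each section number, with peaks in sections 1, 4 and 19 of hard palate replicate 1, and Tfap2b, Nkx2-3, Krt10 and Krt36 hold their order through the depth, except that Krt36 peaks in section 19 of hard palate replicate 1.

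The promoters of 5 genes are shown because the results turn on them: the factors Tfap2b and Nkx2-3, the palate keratins Krt10 and Krt24, and the tongue keratin Krt36. Each is the 250 bases before the RefSeq start (GRCm38.p6), written 5′ to 3′ on the strand of the gene, with TATAA (the core of a TATA box) in capitals. They lie at chr1:19211804-19212053 (plus strand), chr19:43612075-43612324 (plus), chr11:99389365-99389614 (minus), chr11:99285263-99285512 (minus) and chr11:100105627-100105876 (minus).
Tfap2b: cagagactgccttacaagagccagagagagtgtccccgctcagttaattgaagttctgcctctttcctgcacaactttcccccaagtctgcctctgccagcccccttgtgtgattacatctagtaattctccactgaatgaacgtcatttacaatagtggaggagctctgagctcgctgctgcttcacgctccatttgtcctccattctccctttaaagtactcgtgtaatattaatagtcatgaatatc
Nkx2-3: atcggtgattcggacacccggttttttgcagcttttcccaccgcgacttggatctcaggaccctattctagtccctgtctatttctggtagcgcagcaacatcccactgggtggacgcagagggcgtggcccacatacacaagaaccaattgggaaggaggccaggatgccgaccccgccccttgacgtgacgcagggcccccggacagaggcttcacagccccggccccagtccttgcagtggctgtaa
Krt10: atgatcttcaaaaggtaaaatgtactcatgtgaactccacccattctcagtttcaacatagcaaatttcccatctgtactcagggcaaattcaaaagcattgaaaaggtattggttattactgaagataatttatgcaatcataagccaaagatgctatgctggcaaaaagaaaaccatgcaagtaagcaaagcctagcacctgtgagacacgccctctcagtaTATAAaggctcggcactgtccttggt
Krt24: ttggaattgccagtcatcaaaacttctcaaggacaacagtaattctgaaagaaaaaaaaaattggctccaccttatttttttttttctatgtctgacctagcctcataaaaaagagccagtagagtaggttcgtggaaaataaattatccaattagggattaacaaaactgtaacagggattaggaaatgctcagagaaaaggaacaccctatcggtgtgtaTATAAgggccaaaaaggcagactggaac
Krt36: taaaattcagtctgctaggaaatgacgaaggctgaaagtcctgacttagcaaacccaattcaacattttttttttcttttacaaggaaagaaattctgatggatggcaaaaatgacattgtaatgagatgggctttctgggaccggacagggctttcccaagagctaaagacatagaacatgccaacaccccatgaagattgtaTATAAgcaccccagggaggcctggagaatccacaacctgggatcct
TATAA begins 26, 28 and 46 bases before the start of Krt10, Krt24 and Krt36 and was not found in these windows of Tfap2b and Nkx2-3. The Tfap2b window lies inside the span given for that gene below, so the bases before the first base of that span were not searched. On the gene strand it was present in 13 of the 25 epithelial and hard keratins with a promoter in the table (40 were listed), and in 16% of all 32851 promoters of this length. On either strand the numbers were 14 and 22.8%. Of the keratins with a promoter it was present in 3 of 4 that were higher in palate in 5 of 8 that were lower and in 4 of 10 that did not pass. A match is a sequence in a window and not a measured site.

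Over all 20 sections 2417 of 17815 genes passed (13.6%): 624 were higher in hard palate (3.5%) and 1793 lower (10.1%). The count for sections 1 to 5 was 843 of 14197 (5.94%), with 231 higher (1.63%) and 612 lower (4.31%). Each list count below is to be read against these shares. The median log2 fold change of all genes was 0.02 in whole samples and 0.00 in sections 1 to 5. The 2 samples of one site lay wholly above those of the other for 60.8% of genes in whole samples and 50.2% in sections 1 to 5. The counts depended on single libraries: the whole-sample count was 811 without ventral tongue replicate 1 and 1326 without replicate 2, and the count of sections 1 to 5 was 183 without ventral tongue replicate 2. Scaled to the keratinocyte list in place of all genes, 283 were higher and 2952 lower in whole samples, with a median over all genes of -0.51. Taken relative to the median of all genes, the median of each gene list kept its sign under this scaling in whole samples, and in sections 1 to 5 that of each list but Notch (-0.02, and 0.01 under this scaling). A scaling moves all genes by nearly the same amount, so this was close to fixed in advance and is no support. Small list medians above 0 in whole samples, such as 0.26 for cornified envelope genes, are smaller than the shift of all genes under this scaling.

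Patterning transcription factors, which set the identity of facial regions in the embryo, moved in both directions. Of 66 tested 19 were higher in palate and 14 lower, and in sections 1 to 5 10 and 9 of 58 (medians 0.41 and 0.12). Without ventral tongue replicate 1 the whole-sample counts were 5 and 9, and without replicate 2 11 and 11. For sections 1 to 5 they were 3 and 5 without ventral tongue replicate 2 and 5 and 7 without replicate 1.

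Tfap2b, an AP-2 factor of neural crest and facial ectoderm (ENSMUSG00000025927, GRCm38 chr1:19208914-19238576), had 189.8 and 180.3 CPM in palate and 1.87 and 2.38 in ventral tongue. Its sections 1 to 5 had 178 and 228 against 0.465 and 1.27. The sites did not overlap, and each palate section had UMIs of it. The log2 fold change was 6.44 ± 0.31 (SE, adjusted p = 0.000811) and 7.64 ± 0.46 in sections 1 to 5 (adjusted p = 0.00344). It passed in every fit without 1 library, as did Msx2, Shox2, Sox9 and Foxe1 in whole samples. Msx2, a homeobox gene of palate and tooth development, had 60.7 and 50.3 CPM against 2.58 and 9.08 (3.23 ± 0.58, adjusted p = 0.018). Shox2, a homeobox gene of the front of the embryonic palate, had 13.2 and 40.6 CPM against 1.08 and 0.581 (5.04 ± 0.70, adjusted p = 0.00748). Foxe1, a forkhead factor whose loss causes cleft palate, had 186 and 165 CPM against 28.9 and 35.0 (2.46). Homeobox families were counted after their values were seen: 4 of 5 Iroquois genes (Irx1, Irx2, Irx3 and Irx5) and 3 of 6 distal-less genes (Dlx3, Dlx5 and Dlx6) were higher. Of these Irx3 (2.25), Dlx3 (2.21) and Dlx5 (2.26) passed in sections 1 to 5. Dlx6 had no UMI in either ventral tongue sample and 114 in palate, which is at least 31.6-fold higher with a limit of 3 UMIs over the site. Without ventral tongue replicate 1 none of these Irx and Dlx genes passed, and without replicate 2 Irx1, Irx2 and Irx5 did not. In sections 1 to 5 Shox2, Sox9 and Foxe1 lost their call without ventral tongue replicate 2, and Irx3, Dlx3 and Dlx5 without either tongue replicate.

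In the other direction Nkx2-3, a homeobox gene of pharyngeal and gut-associated tissue (ENSMUSG00000044220, chr19:43612325-43615892), had 2 and 0 UMIs in palate and 1240 and 1712 in ventral tongue. As CPM this was 0.101 and 0 against 89.0 and 90.4. Pooled by site the ratio was 1770 with a 95% exact counting interval of 491 to 14700; the fitted fold of -10.88 depends on the prior count. Its UMIs in palate came from sections 4 and 19 of replicate 1. Hand2, a helix-loop-helix factor of the jaw and tongue field, had 0.555 and 0.237 CPM against 30.8 and 35.3 (-6.42 ± 0.49, adjusted p = 0.00123). Tbx15 had 3.13 and 2.37 CPM against 150 and 213 (-6.05 ± 0.36). In ventral tongue it was higher in sections 6 to 20 (144 and 225 CPM on average) than in sections 1 to 5 (25.6 and 100.5), as the muscle list was. Barx2, a homeobox gene of oral epithelium and muscle, had 23.7 and 23.7 CPM against 155 and 235 (-3.04 ± 0.31), and -4.12 ± 0.31 in sections 1 to 5 (adjusted p = 0.00635). Pax9, a paired-box gene of the pharyngeal and oral epithelium, had 22.2 and 26.1 CPM against 130 and 159 (-2.58). Nkx2-3, Hand2, Tbx15, Barx2 and Pax9 passed in both comparisons in each fit without 1 library. Six4 and Tbx1, also factors of muscle precursors, passed in whole samples (-3.79 and -2.18) and had -2.80 and -1.08 in sections 1 to 5 (adjusted p = 0.0757 and 0.31). Tbx1 lost its call without ventral tongue replicate 1. The part of muscle in these values was not tested.

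**Figure D2:**
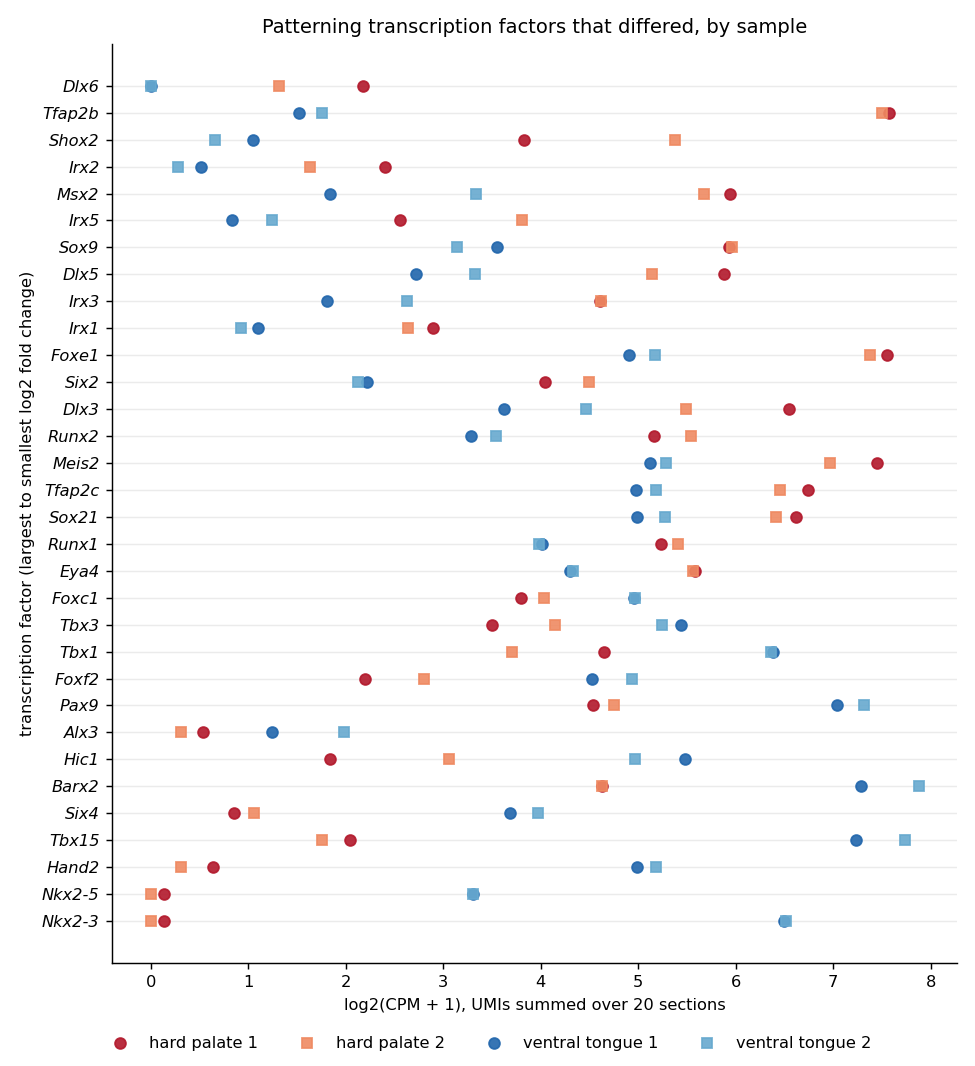
Level of patterning transcription factors that passed in whole samples, as log2(CPM + 1) (x axis), with 1 row per gene and 1 point per sample (circles replicate 1, squares replicate 2). The 4 samples separate by site in each row, with Dlx6 and Tfap2b at the palate end and Nkx2-3 at the tongue end.

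Several keratins of cornifying epithelium were higher in palate. Krt1, the suprabasal type II keratin of epidermis, had 317 and 225 CPM in palate and 4.38 and 20.9 in ventral tongue (4.42 ± 0.75, adjusted p = 0.0147; sections 1 to 5 4.63 ± 0.56). Its type I partner Krt10 had 2517 and 2276 CPM against 220 and 544 (2.65 ± 0.46, adjusted p = 0.0163) and 3.11 ± 0.52 in sections 1 to 5. Both replicates of the palate stood above both of the tongue. Krt24, a type I keratin of differentiated cells, had 2938 and 2669 CPM against 236 and 511 (2.91 ± 0.42), and Krt17, a keratin of skin appendages and activated epithelium, 2280 and 1876 against 377 and 507 (2.23 ± 0.29). Krt2, a late suprabasal epidermal keratin, was at low level, with 5.55 and 9.69 CPM against 0.502 and 2.38 (2.37, adjusted p = 0.086), and passed in sections 1 to 5 (3.64, adjusted p = 0.0179). Krt23 went the other way, with 34.9 and 57.4 CPM against 214 and 241 (-2.30 ± 0.32). Of 23 epithelial keratins tested 6 were higher and 2 lower in whole samples, and the same numbers in sections 1 to 5 (medians 0.39 and 0.46). Without ventral tongue replicate 2 the counts of sections 1 to 5 were 3 and 1, and Krt17 and Krt2 were not called there.

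Of 53 cornified envelope genes 9 were higher and 3 lower, and 5 and 1 of 48 in sections 1 to 5 (medians 0.26 and 0.33). Without ventral tongue replicate 1 the counts were 4 and 0, and 2 and 0 in sections 1 to 5. Without ventral tongue replicate 2 they were 8 and 1, and 1 and 0 in sections 1 to 5. Without hard palate replicate 1 they were 9 and 0, and 8 and 1 in sections 1 to 5. Without hard palate replicate 2 they were 12 and 8. Crnn (cornulin), an S100-fused protein of upper keratinocytes, had 1028 and 1406 CPM against 95.2 and 165 (3.23 ± 0.38, adjusted p = 0.00423) and 3.98 ± 0.44 in sections 1 to 5. Flg (filaggrin), which aggregates keratin filaments, had 306 and 751 CPM against 84.8 and 130 (2.30 ± 0.49, adjusted p = 0.0305; sections 1 to 5 3.18 ± 0.49). Small proline-rich proteins split: Sprr2d had 299 and 238 CPM against 0.143 and 4.70 (6.74 ± 1.19, adjusted p = 0.0167), and Sprr2e, Sprr2f, Sprr2g and Sprr2h were higher as well. Sprr2k was lower (10.4 and 23.6 CPM against 75.6 and 54.2, -1.93), as were Crct1 (-1.30) and Lce3f (-1.24). Reads of Sprr2 genes may be shared between near-identical copies, and the authors' rule for such reads is not stated in the labels. Sprr2d had 303 and 33.7 CPM in sections 1 to 5 of palate, so the replicates differed, and its difference did not pass there (adjusted p = 0.0773). Sprr2e, Sprr2f, Sprr2g, Sprr2h, Crct1 and Lce3f were not called in sections 1 to 5 either, while Sprr2k was (-2.45). Flg, Sprr2g, Sprr2h, Sprr2k, Crct1 and Lce3f lost their calls without ventral tongue replicate 1, and all of these but Flg and Sprr2h without replicate 2. Sprr2k, Crct1 and Lce3f lost them without hard palate replicate 1 as well.

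Several lipid and junction genes of the barrier were higher in palate. Alox12e, an epidermal lipoxygenase, had 100.3 and 15.3 CPM against 0.717 and 0.898 (6.14 ± 1.01, adjusted p = 0.0134), and Cers4 (ceramide synthase) and Smpd3 (a sphingomyelinase) had 2.08 and 1.47. Of 25 barrier lipid genes 4 were higher and 0 lower, against 0 and 0 without ventral tongue replicate 1 and 2 and 1 without replicate 2. Of 27 desmosome and junction genes 6 were higher and 1 lower, with 26 of 27 values above 0 (median 0.83). This list had 0 and 0 without ventral tongue replicate 1, and its median was 0.34 in sections 1 to 5. Dsg1a, a desmosomal cadherin of upper layers, had 781 and 736 CPM against 206 and 293 (1.60, adjusted p = 0.0157). Slurp1, a secreted Ly6 protein of cornifying epithelium, had 938 and 998 CPM against 169 and 259 (2.18 ± 0.30) and 2.64 ± 0.32 in sections 1 to 5. The 20 shared keratinocyte markers had a median of 0.77 in whole samples with 1 passing (Krt14, 1.22), and 0.27 with 0 passing in sections 1 to 5. In whole samples 19 of the 20 values were above 0. Genes such as Dsp, Jup and Pkp1 stand in both this list and the desmosome and junction list. The medians of 0.77 and 0.83 are therefore not independent, and the part of keratinocyte content in the junction values was not tested. Among all 14197 genes of sections 1 to 5 2871 had an unadjusted p under 0.05. Alox12e, Cers4, Smpd3, Dsg1a and Krt14 lost their calls without ventral tongue replicate 1, and Smpd3 and Krt14 without replicate 2. Krt14 lost it without hard palate replicate 1 too.

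**Figure D3:**
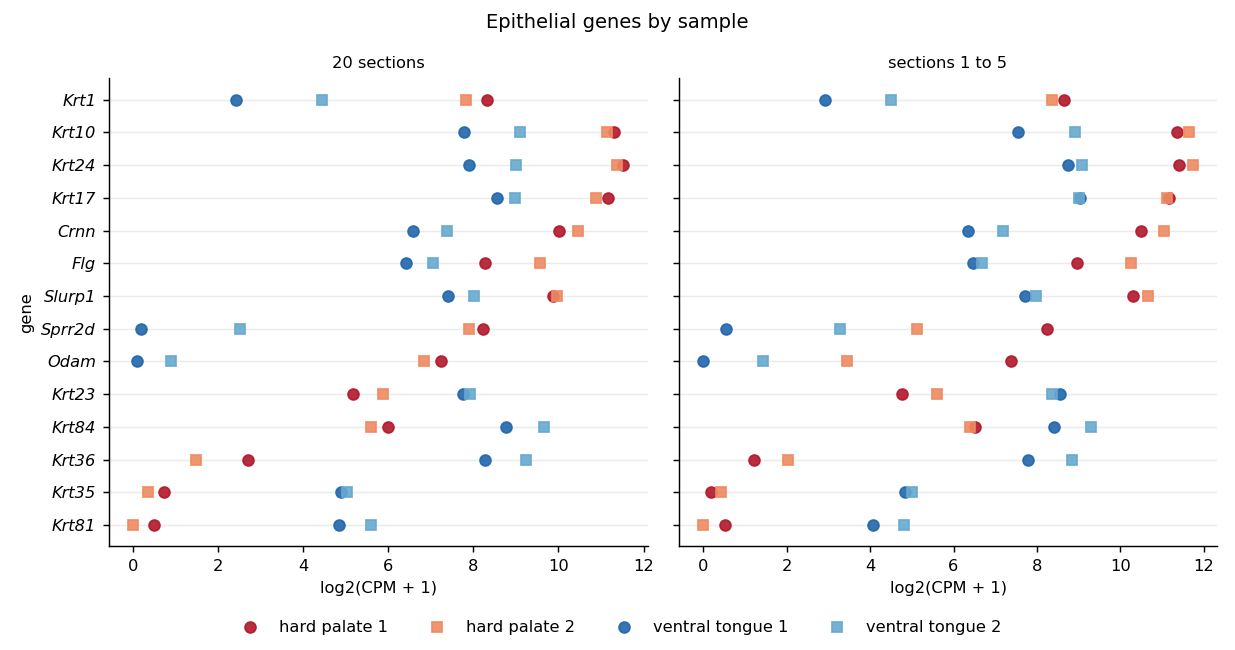
Level as log2(CPM + 1) (x axis) of 14 epithelial genes in 20 sections (left) and in sections 1 to 5 (right), 1 point per sample. Krt1 to Odam are higher in both palate samples and Krt23 to Krt81 in both tongue samples; Sprr2d and Odam of hard palate replicate 2 drop in sections 1 to 5.

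The most abundant keratins came near or slightly past the number of possible UMIs, 4096 per gene and section. The deposited counts exceeded it in 55, 90, 81 and 0 combinations of gene and section in hard palate 1 and 2 and ventral tongue 1 and 2, with up to 4240 for Krt76, and how they could do so is not stated in the labels. Their UMI fold changes are compressed, and reads of the same libraries, which have no such limit but include PCR copies, gave larger differences and other calls. Krt76, a type II keratin of hard palate, had 4366 and 3114 CPM of UMIs before TMM scaling in palate and 1368 and 2219 in tongue, with 17 and 20 palate sections above 3500 UMIs and no tongue section. Its UMI fold was 0.74 ± 0.33 (adjusted p = 0.191). In reads it had 50961 and 30733 RPM (reads scaled as CPM is, without TMM) against 889 and 1907, a log2 fold change of 4.41 ± 0.60 (adjusted p = 0.00778). Krt16, the type I partner of Krt6, had 28644 and 19821 RPM against 674 and 1211 (4.23 ± 0.52, adjusted p = 0.0055), where UMIs gave 1.20 (adjusted p = 0.0501).

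Krt6a and Krt6b changed direction with the kind of count. In UMIs their folds were -0.19 ± 0.28 and -0.09 ± 0.31 (adjusted p = 0.69 and 0.882). In reads Krt6a had 31685 and 31910 RPM in palate and 3676 and 3839 in tongue (2.61 ± 0.42, adjusted p = 0.0135), and Krt6b 36658 and 62750 against 3988 and 2681 (3.42 ± 0.57, adjusted p = 0.0147). The 2 genes are near-identical copies, so reads may be split between them. Krt14 had 3.19 ± 0.53 in reads and 1.22 in UMIs, and its fold in sections 1 to 5 was 2.76 in reads against 0.69 in UMIs. Krt5 had 1.58 ± 0.38 in reads (adjusted p = 0.0456) and 0.39 in UMIs. Krt24, Krt10 and Krt17, called in UMIs above, had larger folds in reads: 5.15 ± 0.55, 4.05 ± 0.57 and 3.45 ± 0.46. Palate sections above 3500 UMIs numbered 9 and 19 for Krt24, 7 and 11 for Krt10 and 4 and 2 for Krt17, with none in tongue.

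Krt4, the type II keratin of lining mucosa, went the other way. It had 4430.0 and 10226 RPM in palate and 44354 and 42175 in tongue (-3.02 ± 0.60, adjusted p = 0.0264), while its UMI fold of -1.08 did not pass (adjusted p = 0.0581). All 20 sections of both tongue samples were above 3500 UMIs. Its type I partner Krt13 was near the limit at both sites, with 33564 and 42382 RPM against 36838 and 66657 (-0.90 ± 0.51, adjusted p = 0.308). Lor (loricrin), the main protein of the epidermal cornified envelope, had 3775 and 6442 RPM against 4616 and 5999 (-0.51 ± 0.43, adjusted p = 0.478). For Krt13 and Lor the samples of the sites overlapped in reads.

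**Figure D4:**
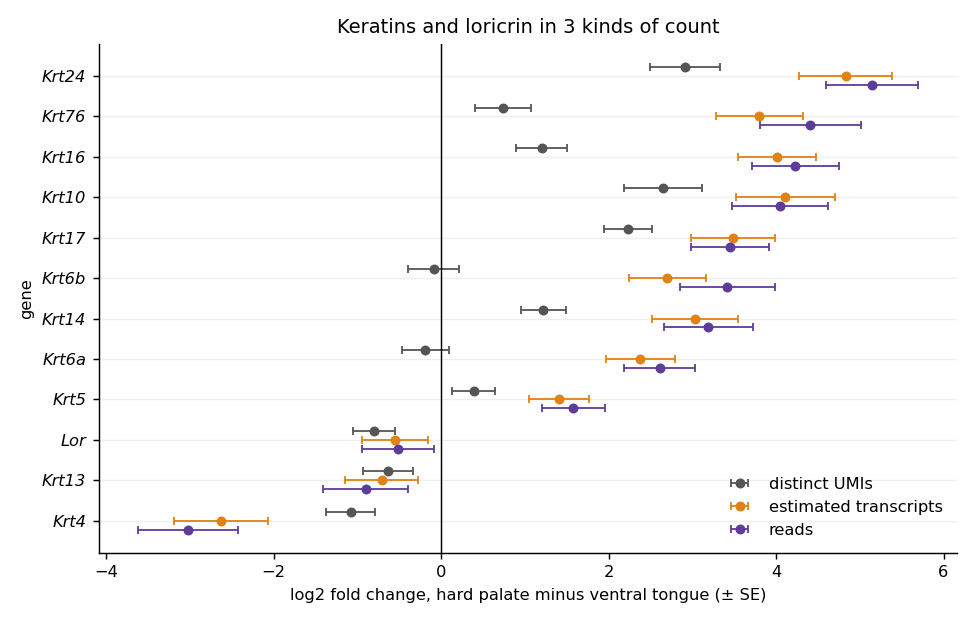
Log2 fold change, hard palate minus ventral tongue, with its SE (x axis) of 11 keratins and Lor from distinct UMIs, estimated transcripts and reads. Krt76, Krt16, Krt6a and Krt6b lie between -0.19 and 1.20 in UMIs and between 2.38 and 4.41 in the other 2 counts, and Krt4 moves from -1.08 to -3.02.

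Hard keratins, the keratins of hair, nail and filiform papillae, were lower in palate. Of 15 with an entry 13 were tested and 12 were lower and 0 higher (median -5.68), and of 10 in sections 1 to 5 9 were lower (median -6.07, or -5.59 with the 1 gene without palate UMIs at its bound). Krt36 (ENSMUSG00000020916, chr11:100102007-100105626) had 5.50 and 1.76 CPM in palate and 307 and 603 in ventral tongue (-6.99 ± 0.73, adjusted p = 0.00292; sections 1 to 5 -7.28 ± 0.62). Of its 109 UMIs in hard palate replicate 1 71.6% came from section 19, and without sections 1, 4 and 19 of that sample its fold was -8.16. Krt84, a type II hard keratin, had 62.4 and 47.0 CPM against 433 and 814 (-3.51 ± 0.40). Krt35, Krt81 and Krt87 had -6.07, -7.71 and -6.42. In those sections 3 hard keratins were called without ventral tongue replicate 2, with Krt81 and Krt84 among those lost. Keratin-associated proteins, the matrix between hard keratin filaments, were counted after their values were seen: 16 of 18 tested were lower and 0 higher (median -6.93), and 12 of 14 in sections 1 to 5. Krtap3-1 had 0.757 and 0.169 CPM against 228 and 320 (-9.29 ± 0.71, adjusted p = 0.00125) and Krtap13-1 0.504 and 0.0677 against 126 and 158 (-9.07 ± 0.74). These families hold near-identical members, whose values are uncertain. Members near 0 in palate, such as Krt81 (8 and 0 UMIs), pass the filter on low counts only through their tongue level, so the counts of both families lean to the tongue. The labels do not say how far the ventral tongue blocks reached towards the papillae of the upper surface, and whether such tissue took part cannot be told apart from expression in the underside itself.

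Some genes of host defence and of the epithelium next to teeth were higher in palate. Odam, made by ameloblasts and by the junctional epithelium around teeth (ENSMUSG00000009580, chr5:87885029-87894174), had 149 and 113 CPM in palate and 0.0717 and 0.845 in ventral tongue (8.03 ± 0.77, adjusted p = 0.00217). In hard palate replicate 2 it averaged 9.30 CPM in sections 1 to 5 and 167 in sections 6 to 20, and 173 and 156 in replicate 1. Its fold of 6.29 in sections 1 to 5 did not pass (adjusted p = 0.0732). Of the 11 listed tooth genes with an entry 4 passed the filter on low counts, which genes near 0 in tongue pass only through their palate level, so their number called is no support. Among them were Ibsp (a bone matrix protein, 1.71 and 5.76 CPM against 0.0717 and 0.0528) and Klk4 (an enamel protease, 2.88). None of the 3 tested in sections 1 to 5 passed. Ibsp and Klk4 lost their calls without ventral tongue replicate 1 and without replicate 2. The enamel matrix genes Amelx, Ambn and Enam did not pass the filter on low counts.

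Of 41 antimicrobial and alarmin genes 12 were higher and 2 lower (median 0.39), and 3 and 2 of 38 in sections 1 to 5 (median 0.04). The counts were 6 and 0 without ventral tongue replicate 1. In sections 1 to 5 they were 8 and 0 without hard palate replicate 2, 2 and 1 without replicate 1, and 1 and 0 and 2 and 0 without ventral tongue replicates 1 and 2. Reg3g, a bactericidal lectin, had 20.98 and 108 CPM against 0.0717 and 0.739 (7.19 ± 1.15, adjusted p = 0.012), and 4.38 ± 0.73 in sections 1 to 5 (adjusted p = 0.0246). Ltf (lactoferrin), which binds iron, had 143 and 84.9 CPM against 0.933 and 3.06 (5.80 ± 0.63), and 2.36 in sections 1 to 5 (adjusted p = 0.0998). The alarmins S100a8 and S100a9, also the main proteins of neutrophils, had 364 and 32.2 CPM against 6.46 and 2.32 (5.51 ± 1.24, adjusted p = 0.0368) and 192 and 48.5 against 5.95 and 2.48 (4.84 ± 0.81). Neither passed in sections 1 to 5 (adjusted p = 0.122 and 0.131). The palate replicates differed widely in both S100a8 and S100a9. Reg3g, S100a8 and S100a9 lost their calls without ventral tongue replicate 1, and S100a8 without replicate 2. The neutrophil chemokines Cxcl1, Cxcl2, Cxcl3 and Cxcl5 were higher (3.63, 4.34, 5.25 and 4.38) and passed without each library in turn. In the upper sections Cxcl1 and Cxcl5 did not pass (adjusted p = 0.238 and 0.159), and Cxcl2 and Cxcl3 were below the filter. Of the neutrophil markers Csf3r, Cxcr2 and Retnlg none passed, at up to 2.72 CPM in any sample. Trbc2, the constant region of a T-cell receptor chain, had 232 and 183 CPM against 14.1 and 5.02 (4.44 ± 0.55, adjusted p = 0.00506). The other T-cell genes were low: Cd3e had 1.31 and 0.440 CPM against 0.502 and 0.792, and Trac 4.29 and 1.22 against 1.94 and 1.11.

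A group of BMP signalling genes was higher in palate. BMP ligands act through SMAD proteins, whose best known targets are the Id genes, which block helix-loop-helix factors. Of 40 genes of the BMP and TGF-beta list 11 were higher and 2 lower, and 7 and 0 of 39 in sections 1 to 5 (medians 0.30 and 0.31). The counts were 0 and 0 without ventral tongue replicate 1 and 4 and 0 without replicate 2, and in sections 1 to 5 1 and 1 and 0 and 1. Among ligands Bmp7 had 147 and 96.7 CPM against 22.02 and 28.9 (2.26 ± 0.32, adjusted p = 0.00783) and Bmp2 96.5 and 81.7 against 26.9 and 41.1 (1.39, adjusted p = 0.0315). Among targets Id1 had 837 and 712 CPM against 169 and 219 (2.00 ± 0.27, adjusted p = 0.00682), and Id2 and Id3 had 2.19 and 1.86. Their folds in sections 1 to 5 were 1.96, 2.01 and 2.04, and all 3 passed. The inhibitory Smad7 was higher (1.53). Of the secreted antagonists Chrd and Nog were lower (-2.16 and -1.56) and Chrdl1 and Sostdc1 higher (2.58 and 1.78). Each of these BMP genes lost its call without ventral tongue replicate 1.

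Of 45 Wnt genes 6 were higher and 5 lower (medians 0.29 and, in sections 1 to 5, -0.04, with 2 and 6 of 41). The counts were 0 and 1 without ventral tongue replicate 1, and without replicate 2 0 and 3. For the upper sections they were 1 and 3, 0 and 4, 0 and 2 and 0 and 2 without hard palate 1, hard palate 2, ventral tongue 1 and ventral tongue 2. The receptor Fzd4 had 5.50 and 9.52 CPM against 75.2 and 67.1 (-3.24 ± 0.35, adjusted p = 0.00322) and -3.46 in sections 1 to 5. It is also known from endothelium. The secreted antagonists Sfrp1 and Sfrp4 were lower (-1.32 and -3.38), and so was the nuclear effector Lef1 (-2.41). The ligand Wnt5a and its receptor Ror2 were higher (1.41 and 2.16; sections 1 to 5 1.27 and 2.28), as were Rnf43 and Znrf3, ligases that remove Wnt receptors (1.89 and 1.79). Among FGF and EGF genes 2 of 34 were higher and 5 lower: Ereg, an EGF receptor ligand, had 114 and 101 CPM against 35.3 and 43.0 (1.46), and Fgf7, a growth factor from mesenchyme for epithelium, 5.40 and 7.55 against 26.3 and 24.5 (-1.97). In the retinoid list the retinoic acid enzymes moved apart, with Aldh1a3 at 3.46 and Aldh1a1 at -2.74 (sections 1 to 5 2.68 and -2.24). Notch had 2 genes higher (Jag1, 1.56, and Notch1, 1.08) and 2 lower of 18, and Hedgehog 1 of 11 higher (Gli3, 2.18). None of these Notch and Hedgehog genes passed in sections 1 to 5. Over all genes 3.5% were higher and 10.1% lower in whole samples. The whole-sample falls of the Wnt and Notch lists and both counts of the FGF and EGF list lay near these shares. They are not read as a result about those lists. Of the genes named in this group Fzd4, Aldh1a3, Sox9 and Igfbp5 passed without each library in turn in whole samples, and the others lost their call without ventral tongue replicate 1. Among progenitor markers Sox9 was higher (60.0 and 61.5 CPM against 10.8 and 7.82, 2.71 ± 0.28) and Igfbp5 lower (126 and 197 against 871 and 742, -2.32 ± 0.31).

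Skeletal muscle genes were lower in palate. Of 54 listed 49 were tested and 45 were lower and 0 higher in whole samples (median -6.90), and 27 of 45 in sections 1 to 5 (median -5.36). Members near 0 in palate, such as Myod1 (0 UMIs in palate and 330 in ventral tongue), pass the filter on low counts only through their tongue level. The counts and medians of the muscle list therefore lean to the tongue. Without sections 1 and 4 of hard palate replicate 1, the pair with muscle transcripts, 41 were called in sections 1 to 5, while 5 were called without ventral tongue replicate 2. Mybpc1, a myosin-binding protein of slow fibres, had 4.04 and 2.23 CPM against 1101 and 713 (-8.18 ± 0.51). Pvalb, the calcium buffer of fast fibres, had 3.28 and 0.644 against 725 and 841 (-8.68 ± 0.86). Myog, which drives myoblast fusion, had 1 UMI in the palate samples together and 724 in ventral tongue, a ratio of 870 with a 95% exact counting interval of 156 to 34400. Genes outside the list that headed the falls, such as Trim63 (a ligase of muscle atrophy, -9.38), Hfe2 (hemojuvelin, -9.17) and Rpl3l (the muscle form of a ribosomal protein, -8.80), are known from muscle too. Ventral tongue still had 20338 and 34158 CPM of the muscle list in sections 1 to 5 against 1833 and 428, so this repeat lowered the muscle part and did not remove it. In the same sections Krtap3-1, Nkx2-3 and Tfap2b kept folds of -9.01, -10.46 and 7.64. Taking muscle and mitochondrial genes out before scaling left 2364 genes called in whole samples and 853 in sections 1 to 5. This fit still tested 17698 of 17815 genes in whole samples, and it kept muscle transcripts outside the list. Near-equal counts were thus close to fixed in advance and are no support.

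Some connective tissue genes were higher in palate. Of 27 bone and cartilage genes with an entry 19 were tested, of which 10 were higher and 1 lower (median 2.06), and 6 of 11 in sections 1 to 5 (median 2.31). Members near 0 in tongue, such as Col2a1 and Col9a2 (2 and 3 UMIs over both tongue samples), pass the filter on low counts only through their palate level. The counts and medians of this list therefore lean to the palate and are no support. Without ventral tongue replicates 1 and 2 the whole-sample counts were 4 and 0 and 6 and 0. In sections 1 to 5 they were 3, 4, 3 and 1 higher without hard palate 1 and 2 and ventral tongue 1 and 2, with 0 lower. Chad (chondroadherin), a cartilage matrix protein, had 16.3 and 39.5 CPM against 2.22 and 1.43 (3.94 ± 0.56, adjusted p = 0.0077; sections 1 to 5 5.76 ± 0.67). Col11a1, a minor cartilage collagen, had 13.2 and 46.8 CPM against 1.08 and 2.27 (4.14 ± 0.74). Acan and Col9a2 were near the bottom of the range, at 5.04 and 2.64 and 4.54 and 3.46 CPM in palate, with 4.90 and 5.37. The collagen-binding proteins Fmod (29.7 and 82.3 CPM against 2.22 and 2.06, 4.71 ± 0.57) and Tnmd, a tendon marker (8.68 and 37.1 against 0.0717 and 0.687, 5.80 ± 1.05), passed in both comparisons. Tnmd, Col11a1 and Acan lost their calls without ventral tongue replicate 1. The defining mineralised bone gene Bglap2 was lower (-2.42, at up to 2.54 CPM) and lost its call in each of the 4 fits without 1 library. Of 49 fibroblast and matrix genes 6 were higher and 1 lower (median -0.27), against 1 and 0 without ventral tongue replicate 1, 3 and 2 without replicate 2 and 6 and 16 without hard palate replicate 2.

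Vessel and macrophage genes that passed were lower in palate, and fat genes moved both ways. Of 23 endothelial genes 8 were lower and 0 higher (median -1.15), and 6 of 22 in sections 1 to 5 (median -1.48). The counts were 3, 14, 1 and 4 without hard palate 1 and 2 and ventral tongue 1 and 2, and in sections 1 to 5 4, 4, 4 and 1. Cdh5, the cadherin of endothelial junctions, had 9.99 and 12.6 CPM against 54.4 and 47.0 (-2.16 ± 0.27, adjusted p = 0.00557). Of 18 smooth muscle and pericyte genes 6 were lower, 0 were higher and 12 did not pass, with 9 values above 0 (median 0.18). For sections 1 to 5 3 of 16 were lower and 0 higher, with 2 values above 0 (median -1.14). Among the lower ones Abcc9 and Kcnj8, channel subunits of pericytes, had -3.84 and -3.38, and the fold of Abcc9 in sections 1 to 5 was -3.99. Fabp4 and Lpl, of fat and capillary endothelium, had 9.63 and 35.5 CPM against 294 and 263 (-3.62) and 16.3 and 72.5 against 940 and 737 (-4.24). Muscle is rich in capillaries, and these genes moved with the muscle list (1247 and 645 CPM against 53913 and 48719); its part was not tested. Of 14 adipocyte genes 4 were higher and 4 lower (0 and 2 without ventral tongue replicate 1, 2 and 4 without replicate 2). The fat genes Adipoq, Cfd and Cidec were higher, with 2, 2 and 1 UMIs in ventral tongue and 320, 746 and 178 in palate, each summed over both replicates. Genes this low in tongue pass the filter on low counts only through their palate level. The whole adipocyte list summed to 123.6 and 307.2 CPM in palate, so the palate replicates differed, and to 1198.3 and 1088.4 CPM in ventral tongue. Of 25 macrophage and antigen presentation genes 5 were lower and 0 higher (median -0.46), and 7 in sections 1 to 5 (median -1.08), against 0 and 3 called without ventral tongue replicate 1 in whole samples and in sections 1 to 5, and 2 and 1 without replicate 2. Without hard palate replicate 1 the whole-sample numbers were 1 lower and 1 higher, and without hard palate replicate 2 9 and 1. C1qb, a complement subunit of tissue macrophages, had 28.3 and 52.4 CPM against 155 and 100.1 (-1.66, adjusted p = 0.0426; sections 1 to 5 -1.82). Cdh5, Kcnj8, Fabp4, Lpl, Adipoq, Cfd, Cidec and C1qb lost their calls without ventral tongue replicate 1.

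In 5 lists no gene was called in whole samples. These were cell cycle (0 of 31; median 0.56), Schwann and nerve (0 of 22), melanocyte (0 of 7), red blood cell (0 of 5) and simple epithelial keratins (0 of 5). Among all genes 5266 had an unadjusted p under 0.05. Without hard palate replicate 2 10 cell cycle genes were called as higher. Top2a, which untangles DNA before division, had 218 and 80.7 CPM against 82.4 and 80.2, so hard palate replicate 1 stood apart. The salivary gland gene Chil4 had 713 and 4.13 CPM against 0.789 and 36.0 and did not pass (adjusted p = 0.27).

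**Figure D5:**
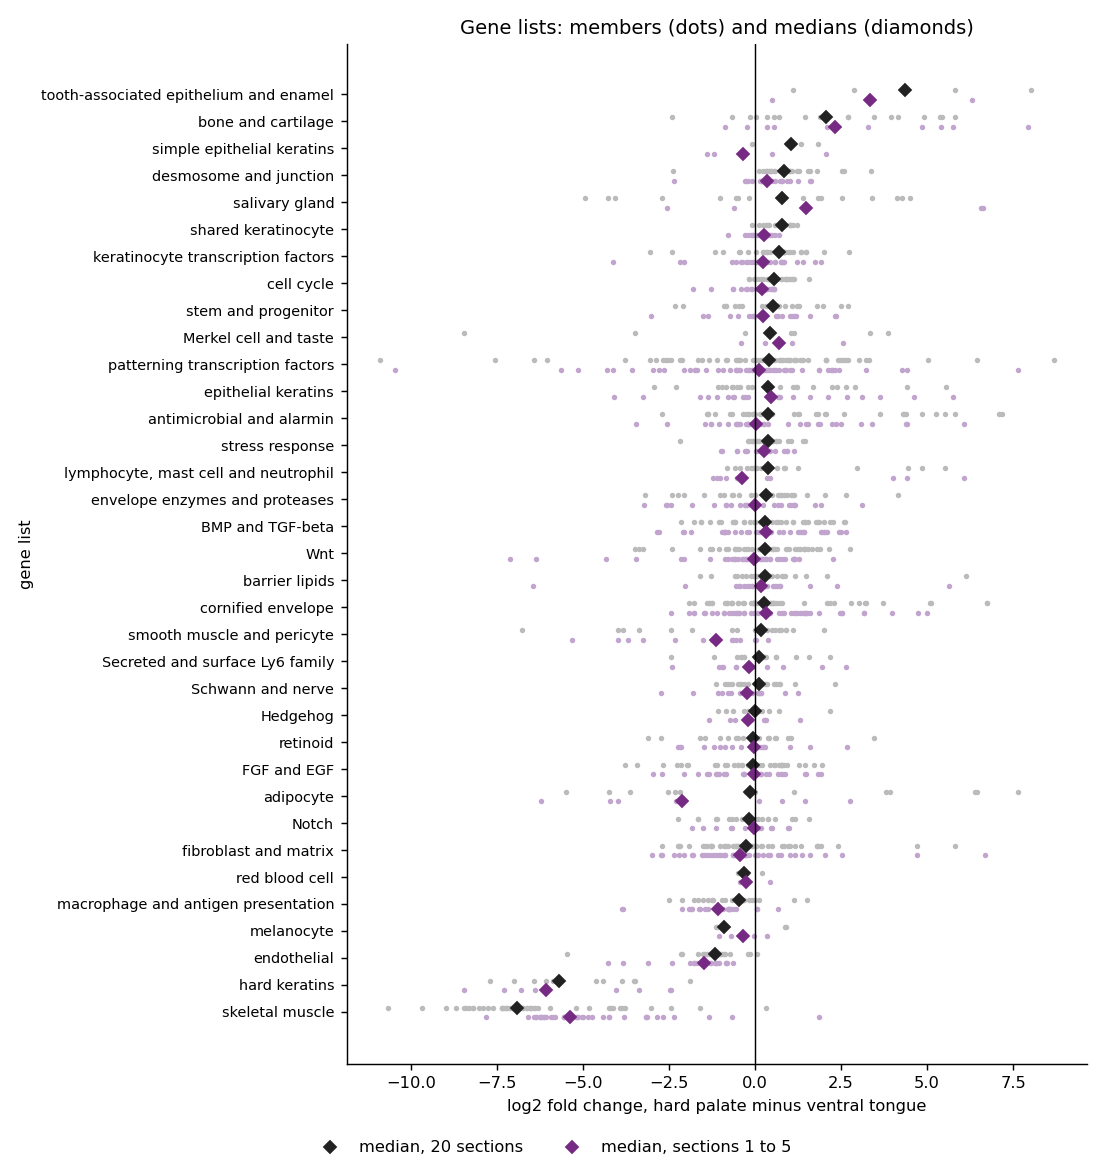
Log2 fold change, hard palate minus ventral tongue (x axis), of the tested members of 35 gene lists (dots, grey for 20 sections and purple for sections 1 to 5) with the median of each list (diamonds). Skeletal muscle and hard keratins have medians of -6.90 and -5.68.

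Whether the difference between the sites itself changed with depth was tested with sections 1 to 5 and 6 to 20 of each sample, with the sample as a term. Of 16737 genes 373 passed (2.23%): the difference was more positive in sections 1 to 5 for 298 (1.78%) and more negative for 75 (0.448%). The count was 75 without hard palate replicate 1, 753 without hard palate replicate 2 and 1769 without ventral tongue replicate 2. The median of all genes was -0.08. Of 53 cornified envelope genes 15 passed with a more positive difference in sections 1 to 5 and 0 in the other direction. All of these but Crnn and Flg were Lce1 genes, near-identical neighbours whose reads may be shared. Of those Lce1 genes only Lce1e (1.85) and Lce1j (2.53) were called as higher in palate in sections 1 to 5. Crnn had 1476 and 2156 CPM in sections 1 to 5 of palate and 803 and 1238 in sections 6 to 20, against 81.8 and 146 and 94.0 and 167 in ventral tongue (difference 1.03 ± 0.21, adjusted p = 0.049). Flg and Msx2 had 1.28 ± 0.25 and 1.75 ± 0.30. In the other direction the oral epithelial genes Barx2 (-1.46 ± 0.26) and Krt23 (-1.31 ± 0.21) had a larger difference in favour of the tongue in sections 1 to 5, where the keratinocyte level of ventral tongue was also higher. Barx2 had 241 and 272 CPM there and 134 and 217 in sections 6 to 20. Ltf had 35.7 and 31.7 CPM in sections 1 to 5 of palate and 196 and 98.9 in sections 6 to 20, and at most 10.4 in ventral tongue (-5.13 ± 0.66, adjusted p = 0.0331). In the tongue samples 3 of 13 and 48 of 58 Ltf UMIs lay in sections 1 to 5, so part of this difference rests on few tongue UMIs. The keratin-associated gene Krtap13 had 22.2 and 14.7 CPM in sections 1 to 5 and 4.38 and 2.38 in sections 6 to 20 of palate, against 104 and 214 and 219 and 360 in tongue (3.37 ± 0.23, adjusted p = 0.00412). The planes of the sections relative to the surface are not given, so the same section number need not mark the same depth at both sites.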

How the data were processed

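CEL-seq2 libraries were made from RNA of single 14 µm sections and sequenced on a NextSeq500, per the labels' protocols. The submitters' processing notes list GRCm38 as the build, with STAR 2.7.9a and Trim Galore 0.6.10 as tools. The sources used here do not name a counting program. The authors deposited per section the counts of distinct UMIs, the read counts, and an estimated count of transcripts after a correction for UMI collisions (4096 possible UMIs). The UMI limit compresses abundant genes. Estimated counts were rounded to whole numbers before testing. Entries naming several genes held 0.185% to 0.251% of UMIs.

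Counts were summed over sections (20, or 1 to 5) and tested in the 4 samples with edgeR 4.0.16 in R 4.3.3 (filterByExpr, TMM, quasi-likelihood F-test, Benjamini-Hochberg adjusted p under 0.05); the SE is the log2 fold change divided by the square root of F. The depth test used sections 1 to 5 minus 6 to 20 with sample terms. Alternatives included DESeq2 1.42.0 and limma 3.58.1. Scripts were tested on simulated data. Named genes were the 10 largest rises and 10 largest falls of at least 50 CPM without overlap between sites, 6 each in sections 1 to 5, up to 4 called members per list of at least 20 CPM (or the 2 most abundant where none was called), 4 depth differences each way, and a set of anchor keratins and envelope genes; muscle genes were taken only through their list. The members and lists were chosen with earlier results of these data known. Counting intervals and the 3-count limit cover counting error only. Promoters are from RefSeq. The other 4 samples entered only 1 alternative with all 8 samples and 1 with 6. Results for a few genes are not reported here.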

Additional observations from a re-analysis of the deposited data

Results flagged for a closer look

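For 20 named genes the difference between the sites itself differed between sections 1 to 5 and 6 to 20 (edgeR's quasi-likelihood interaction test, Benjamini-Hochberg adjusted p under 0.05, 2 samples per site). Values are the log2 difference in sections 1 to 5 minus that in sections 6 to 20.

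Palate genes with a larger excess in sections 1 to 5 were 4930438A08Rik (2.07), Spink7 (1.93), Msx2 (1.75), Flg (1.28) and Crnn (1.03). Spink7, a protease inhibitor of squamous epithelium, had 285 and 69.2 CPM in sections 1 to 5 of palate and 101.5 and 23.6 in sections 6 to 20, and at most 12.6 in ventral tongue. Ltf was the opposite case (-5.13).

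The difference leaned more to the tongue in sections 1 to 5 for Krt23 (-1.31), Barx2 (-1.46), Psca (-2.63) and Mal (-2.21). Psca and Mal were not called in whole samples, where Mal had 1120 and 1215 UMIs in palate and 2217 and 1006 in ventral tongue. Psca, a surface Ly6 protein, had 80.4 and 63.6 CPM in sections 1 to 5 of ventral tongue and 37.9 and 30.4 in sections 6 to 20, against 16.5 and 10.6 and 62.8 and 22.5 in palate, so the sites overlapped in sections 6 to 20. Lyve1, a marker of lymphatic vessels and some macrophages, had -2.08. Ccnd2, a cyclin, had -1.66.

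Tongue genes whose excess was larger in sections 6 to 20 were 2310065F04Rik (3.75), 2310034C09Rik (3.55), Krtap13 (3.37), Lynx1 (1.85), Krt84 (1.45) and Ddit3 (1.36). Scgb2b27 had 5.93, with 139 CPM in sections 6 to 20 of ventral tongue replicate 2 and at most 14.7 in any other combination of sample and depth. Chil4 had 2.72, with 621 and 757 CPM in hard palate replicate 1 and at most 44.7 elsewhere. The muscle and keratinocyte levels of ventral tongue also differed between these depths, and their part in these values was not tested.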

How the results depend on the processing

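Of the counts of genes called, the whole-sample 2417 became 4340 with no filter on low counts, 1335 with all 8 samples in the fit and 811 to 3317 with 1 library left out. The 843 of sections 1 to 5 became 2160 with no filter, 3 with all 8 samples (1778 at an unadjusted p under 0.05), 1986 with sections 1 to 10 and 183 to 743 with 1 library left out. The 373 of the depth test became 1494 with no filter, 696 with DESeq2, 845 with sections 1 to 10 against 11 to 20 and 75 to 1769 with 1 library left out. DESeq2 called 3465 and 1260. With keratinocyte scaling 8.75% of whole-sample calls were higher in palate, against 25.8%, and 40.7% with no filter.

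Same-numbered samples did not deviate together (correlation -0.177), so the numbers were not taken as pairs. With the replicate block 1547 and 340 genes were called, and with the crossed pairing, chosen after seeing the data, 3137 and 1454.

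In whole samples these values reversed. Krt7 had 0.21 and 0.20 with the block and crossed block, 0.26 with equal section weights and 0.24 in sections 6 to 20. Ccnd2 had 0.06 with no filter, 0.00 with all 8 samples, 0.34 in sections 6 to 20 and 0.02 without sections 1, 4 and 19 of hard palate 1 (chosen after seeing the data). Keratinocyte scaling gave -0.16 for Krt5 and -0.29 for Rptn. Krt6a had 2.61 in reads, 2.38 in transcripts and 0.32 with equal weights. Krt6b had 3.42, 2.7 and 0.44 in these and 0.07 in sections 6 to 20.

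With 1 library left out the whole-sample values ranged from -0.79 to 1.22 for Krt7, -1.30 to 0.29 for Pou2f3, -2.16 to 8.80 for Chil4, -1.69 to 0.18 for Hbb-bs, -2.02 to 0.33 for Hba-a1, -0.00 to 1.44 for Top2a, -0.24 to 0.19 for Ccnd2, -1.34 to 3.77 for Hrnr, -1.61 to 0.35 for Krt80, -0.40 to 0.01 for Krt6a, -0.39 to 0.76 for Rptn and -0.35 to 0.21 for Krt6b. In sections 1 to 5 they ranged from -1.09 to 3.46 for Hrnr, -0.53 to 0.26 for Krt5, -2.48 to 0.08 for Krt80 and -1.08 to 0.07 for Krt6b. There, reads and transcripts gave 0.86 and 0.65 for Krt5, 2.64 and 2.21 for Krt6a and 3.29 and 2.28 for Krt6b. With sections 1 to 10 Krt5 had 0.24 and Rptn 0.02. In the depth test Scgb2b27 had -5.31 with sections 1 to 10 against 11 to 20. Apart from the read and transcript values, which the UMI limit bears on, the cause was not tested. Of the 114 genes of the naming rule called in whole samples 59 kept their call without each library in turn, and 39 of 88 in sections 1 to 5. With 2 samples per site, simulated 2-fold changes were recovered in 8.06% of cases in whole samples and 4-fold changes in 72.9%. The simulation held 13770 genes, without those of few UMIs, and gave all genes the same spread between replicates. Its rates need not hold for genes of low count or with replicates far apart.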

Other observations

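Sections 1, 4 and 19 of hard palate replicate 1 carried muscle transcripts, and section 19 also keratin transcripts that were high in ventral tongue. Section 19 had 16992 CPM of the muscle list, 262 CPM of Krt36 and 33.5 CPM of Krtap3-1, and it held 71.6% of the Krt36 UMIs of that sample. In sections 1 and 4 Krt36 had 3.63 and 4.54 CPM, against 5.82 in section 1 of hard palate replicate 2. Without these 3 sections 2419 genes were called, Krtap3-1 had -10.61 and Tbx15 -6.17, and no Nkx2-3 UMI was left in the palate samples. The source of these transcripts was not tested.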
